A study of Mus musculus with 14 samples.

Results

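The 10 apolipoprotein genes Apoa1, Apoa2, Apoa4, Apoa5, Apob, Apoc1, Apoc3, Apoe, Apoh and Apom, of 21896 protein-coding genes in the RefSeq table used, were followed by the H3K9ac peaks that overlapped the gene's mm10 span extended by 5 kb on each side. H3K9ac, acetylation of lysine 9 of histone H3, marks active promoters and enhancers, and was profiled by ChIP-seq, sequencing of immunoprecipitated chromatin, with an AcH3K9 antibody in whole liver of male C57BL6/J mice aged 2 to 3 months, 12 h after partial hepatectomy. The study addressed how delaying the fall in blood glucose after this operation affects the mark. By title, 6 libraries are d22 and 6 are pbs. The d22 libraries carry a vehicle treatment label (1/2 strength PBS) and the pbs libraries a dextrose label (22.5%), which contradicts the titles. The pooled input DNA of each group carries the dextrose label. The groups are therefore called by their titles alone, differences are taken as d22 minus pbs, and which mice received dextrose is not stated. No label ties a library to its own animal, so the p-values cover only the spread among these libraries, which may be partly technical.

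Overlapping peaks of the 12 libraries were joined into 57979 regions, of which 24 lay in the windows of the 10 genes. Of these 24, 11 had a peak in all 12 libraries, as 12375 of the 57979 did, and were tested. Of the other 13, 2 had a peak in 11 libraries, 1 in 10, 2 in 2 and 8 in 1. The 10 genes share 8 leading regions, because Apoa1 with Apoc3 and Apoc1 with Apoe lie in 1 region each. The other 3 tested regions sit at neighbouring genes, namely Fcer1g near Apoa2, and Gm20522 with D17H6S53E, and Bag6, near Apom.

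Apolipoproteins are the protein part of the particles that carry fat and cholesterol in blood, and the hepatocyte is the main source of most of them. Apob is the scaffold of very low density lipoprotein, Apoa1 and Apoa2 are the main proteins of high density lipoprotein (HDL), and Apom rides on HDL and carries sphingosine-1-phosphate. Apoa5 favours and Apoc3 hinders the clearance of triglyceride by lipoprotein lipase, Apoe is a ligand of the low density lipoprotein receptor, Apoc1 and Apoa4 are exchanged between particles, and Apoh binds phospholipids. Several of these genes are classical targets of HNF4A, a nuclear receptor of hepatocytes.

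Start windows, 250 bases before to 50 bases after a RefSeq transcription start (GRCm38.p6, the coordinates of mm10), were found for 8 of the 10 genes. Apoc1 and Apoc3 had no entry. Of these windows, 4 are printed 5′ to 3′ because the genes' regions had the smallest p-values or because the peaks left the start partly uncalled, with TATAAA, a core promoter motif, and CAAAG, the core of the HNF4A motif, in capitals on either strand. They are Apob (chr12:7977427-7977726, plus strand), Apoa2 at its start nearer the 3′ end (chr1:171224804-171225103, plus strand), Apom (chr17:35131752-35132051, minus strand) and Apoh (chr11:108395047-108395346, plus strand).
Apob: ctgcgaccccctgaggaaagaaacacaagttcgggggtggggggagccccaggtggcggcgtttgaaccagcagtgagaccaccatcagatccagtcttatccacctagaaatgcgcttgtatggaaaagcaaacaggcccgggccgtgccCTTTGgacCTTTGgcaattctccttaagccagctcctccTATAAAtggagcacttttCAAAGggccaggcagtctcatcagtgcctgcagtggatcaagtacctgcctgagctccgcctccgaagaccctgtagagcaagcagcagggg
Apoa2: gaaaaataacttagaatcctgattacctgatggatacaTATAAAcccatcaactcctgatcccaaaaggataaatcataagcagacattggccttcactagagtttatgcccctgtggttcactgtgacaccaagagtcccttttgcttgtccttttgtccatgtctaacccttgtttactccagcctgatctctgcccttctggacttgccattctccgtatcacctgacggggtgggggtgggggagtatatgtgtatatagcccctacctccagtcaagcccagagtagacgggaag
Apom: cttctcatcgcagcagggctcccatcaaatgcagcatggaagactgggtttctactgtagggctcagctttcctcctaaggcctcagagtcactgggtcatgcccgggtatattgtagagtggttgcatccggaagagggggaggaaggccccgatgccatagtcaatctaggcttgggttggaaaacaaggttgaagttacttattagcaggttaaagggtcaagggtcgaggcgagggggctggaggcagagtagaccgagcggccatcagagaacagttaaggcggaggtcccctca
Apoh: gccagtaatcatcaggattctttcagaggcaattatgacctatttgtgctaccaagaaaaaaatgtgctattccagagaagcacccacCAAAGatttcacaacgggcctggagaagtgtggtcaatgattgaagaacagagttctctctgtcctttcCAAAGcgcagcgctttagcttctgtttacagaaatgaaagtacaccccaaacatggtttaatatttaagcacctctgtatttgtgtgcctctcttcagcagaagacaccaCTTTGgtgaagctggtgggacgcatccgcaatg
In a further window, Apoa1 (chr9:46228380-46228679, plus strand), the capitals mark 109 bases that no peak of pbs 3 covered.
Apoa1: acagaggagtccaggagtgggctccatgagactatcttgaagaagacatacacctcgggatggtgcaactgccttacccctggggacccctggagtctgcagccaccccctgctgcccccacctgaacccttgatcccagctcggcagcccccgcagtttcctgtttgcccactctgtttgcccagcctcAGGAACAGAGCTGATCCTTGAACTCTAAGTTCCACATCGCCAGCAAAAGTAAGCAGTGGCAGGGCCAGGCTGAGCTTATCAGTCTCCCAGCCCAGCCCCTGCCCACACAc

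Distances count the start base as 0 and give the first letter of the motif. Apob held TATAAA at -60 and CAAAG at -99, -91 and -42, the first pair on the minus strand. Apoa2 held TATAAA at -212, far from the usual place of that motif, and Apoh held CAAAG at -162, -93 and 17, the last on the minus strand. Apom held neither motif. Some genes have several start windows, which can overlap, and of the 12 windows of the 8 genes 8 held CAAAG and 5 held TATAAA, where 53.9% and 13.6% of all 32851 windows did. Other motifs searched on both strands were CCAAT, in 2 of the 12 and 37.4% of all windows, AGGTCA, in 2 and 16.3%, and CACGTG, in 2 (both of Apoa5) and 7.15%. These matches describe the letters only. The windows were well covered by peaks: the whole 300 bases were called in 11 libraries at Apob, in 10 at Apom and in 8 at Apoa1, but in 2 at Apoh.

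Tags are given as CPM, scaled to each library's total over the tested regions times its TMM factor (edgeR's normalization between libraries). Depth after the authors' filtering ran from 6343891 (d22 4) to 13259411 (pbs 1) tags per library, and the shallowest library had the longest peak list, 44585 peaks in d22 4, where the others had 26352 to 30780. Peaks in the 24 regions held 0.311 ± 0.0196% of the tags in peaks in d22 and 0.329 ± 0.0152% in pbs (± SD, n = 6 per group). In whole liver, fewer cells that carry the mark and less mark per cell cannot be told apart. Of 8 hepatocyte markers listed, Tf was not found under that symbol among the RefSeq genes. The other 7 had a tested region, with summed tags of 1719 to 1953 CPM in d22 and 1848 to 2191 in pbs. Of the markers of other cells, a tested region lay at 1 of 7 for macrophages (58.8 to 92.1 CPM in d22 and 62.8 to 79.0 in pbs), 1 of 6 for endothelium (14.5 to 23.5 in d22 and 6.36 to 34.3 in pbs), 1 of 5 for cholangiocytes (67.7 to 139 in d22 and 67.3 to 92.9 in pbs) and 1 of 5 for lymphocytes (111 to 265 in d22 and 109 to 140 in pbs). None lay at the 6 stellate, 4 neutrophil, 4 erythroid and 4 enterocyte markers. Of the other macrophage markers, Marco, Timd4 and Cd5l had no peak in any library. Clec4f had a peak in at most 2 libraries, Adgre1 in 1 and Csf1r in 5. Over the 7 hepatocyte regions the median log2 difference was -0.08, with 6 lower and 1 higher in d22 and 0 called. Of all tested regions, 49.1% were lower in d22. An unadjusted edgeR p under 0.05 was reached by 2 of the 7, Alb and Cyp2e1, where 10.9% of all regions reached it. Albumin (Alb) had the largest of these differences, -0.56 ± 0.18 (log2, SE, edgeR adjusted p = 0.177), and Cyp2e1 the next, -0.55 ± 0.22 (adjusted p = 0.347). The macrophage and lymphocyte regions, at Cd68 and Cd79a, hold the starts of Mpdu1 and Arhgef1 instead of their own. The part of cell composition in the differences between the title groups was not tested.

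Several apolipoprotein genes lay in some of the widest and most heavily tagged H3K9ac regions of these livers. The Apoc1 and Apoe region (chr7:19667908-19704674), which also holds Apoc2 and Apoc4, was 36767 bp wide and ranked 1 of 12375 both by width and by tags. It had the most tags of any tested region in each of the 12 libraries and the longest or next longest called length. Apoa1 and Apoc3 (chr9:46220659-46237097) ranked 18 by tags, Apoa2 (chr1:171212185-171228455) ranked 45, Apoa5 (chr9:46266773-46275798) ranked 64 and Apob (chr12:7976045-7985639) ranked 360. Apoa4 (chr9:46239144-46243832), Apoh (chr11:108395005-108396967) and Apom (chr17:35129835-35133710) ranked 4333, 5809 and 7868. These wide regions are shared with other genes, since the Apoa2 region also holds the start of Nr1i3, the nuclear receptor CAR, and the Apoa5 region that of Zpr1, a zinc finger protein.

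**Figure D1:**
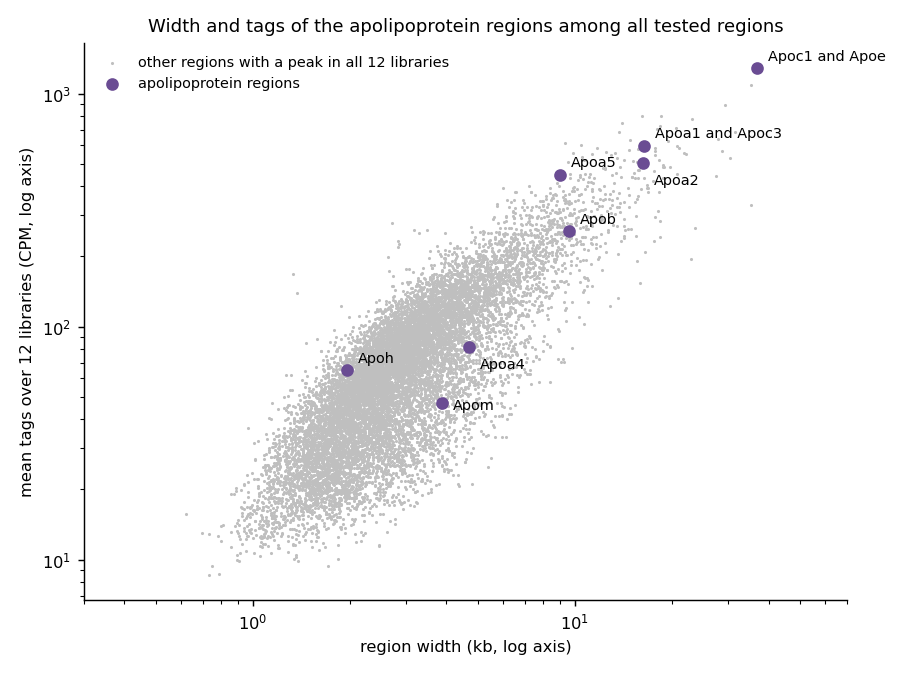
Region width (kb, log axis) against mean tags over the 12 libraries (CPM, log axis), 1 point per region with a peak in all 12 libraries. The Apoc1 and Apoe region, 36767 bp wide, is the farthest to the upper right, and Apom and Apoh lie within the main cloud.

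Per called kilobase the order differed. Scaled to 1 kb of called peak, Apoa5 had the densest mark, 54.4 ± 2.58 CPM per kb in d22 and 54.1 ± 6.35 in pbs (± SD, n = 6 per group), and it was the highest of the 8 leading regions in 11 of 12 libraries. Apom was the lowest in 11 of 12, with 19.6 ± 3.22 CPM per kb in d22 and 21.7 ± 2.33 in pbs. Apoa4, which ranked just above it, had 28.4 ± 4.51 in d22 and 25.5 ± 3.76 in pbs. Between Apoa5 and Apoa4 came Apoa1 with Apoc3 (45.3 CPM per kb over the 12 libraries), Apoc1 with Apoe (43.0), Apob (42.0), Apoh (41.4) and Apoa2 (36.7). Neighbours in this order differed by less than 1 SD (4.71 to 7.03, n = 12), although its ends did not mix: Apoa1 with Apoc3 ranked 2 to 4 of the 8 and Apoa2 ranked 5 to 7 in single libraries. The median over all tested regions was 31.7 CPM per kb, with Apoa4 and Apom below it. The Apoc1 and Apoe region, first by tags, ranked between 1078 and 3444 per kilobase in single libraries.

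Called H3K9ac covered some genes whole, others in part and the longest mainly near the start. Apoa5 was covered over 100% of its span in all 12 libraries. Apoa1 (99.5% in d22 and 99.3% in pbs), Apoc3 (99.1% in d22 and 100% in pbs), Apoe (97.5% in d22 and 99.2% in pbs) and Apoa2 (98.9% in d22 and 98.0% in pbs) were nearly whole. Apoc1 was covered over 92.2% in d22 and 97.3% in pbs. Apoa4, 2.6 kb long, was covered over 78.2 ± 13.3% in d22 and 71.3 ± 27.2% in pbs (± SD, n = 6 per group). Apom, 2.8 kb long, was also covered only in part, as given below. At the longer genes the mark stayed near the start: Apob, 39.2 kb long, was covered over 12.4 ± 2.97% of its span in d22 and 16.2 ± 4.04% in pbs, and Apoh, 19.1 kb long, over 8.17 ± 1.41% in d22 and 7.75 ± 0.906% in pbs (± SD, n = 6 per group). The summit of the peak over the Apob start lay 290 to 446 bp downstream of it in all 12 libraries. At Apoh the start was called in 5 of 6 d22 and 6 of 6 pbs libraries, the peak reached only 8 to 292 bp upstream, and its summit lay 581 to 851 bp downstream.

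The Apoa1 start was called in 6 of 6 d22 and 4 of 6 pbs libraries. Where a break fell there it was short: 20 bp from base 1 in d22 3, 32 bp from base 31 in d22 6, 37 bp from base -5 in pbs 2 and the 109 bp printed above in pbs 3. Peaks stood on both sides of each break. Shorter breaks near the start occurred at Apob (20 bp in pbs 2), Apoa5 (15 bp in d22 2 and 12 bp in pbs 4) and Apoa2 (3 bp in d22 5), and 1 of 94 bp lay upstream of Apoa4 in pbs 2.

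**Figure D2:**
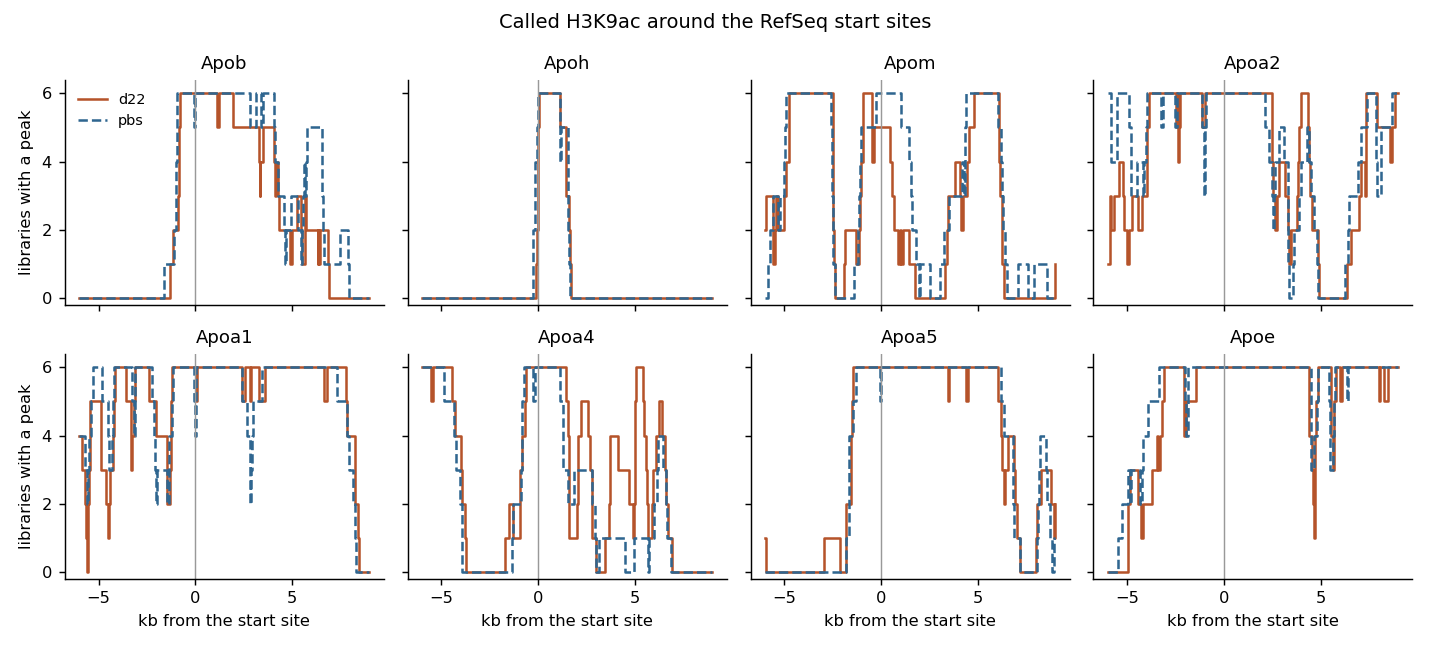
Number of libraries (of 6 d22, solid, and 6 pbs, dashed) with a called peak at each distance in kb from the first listed start site of 8 genes, positive distances downstream. At Apoh the called mark ends within a few kb of the start, it spreads over several kb at Apoa1, Apoa5 and Apoe, and downstream of the Apom start fewer d22 than pbs libraries have a peak, 2 of 6 d22 and 6 of 6 pbs at 1000 bp.

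Between the title groups, no apolipoprotein region passed the test on tags. The counts of the 11 regions were tested with all 12375 regions together, by edgeR's quasi-likelihood test with Benjamini-Hochberg adjustment at 0.05. None of the 11 was called, against 125 of 12375 regions in all (1.01%). At an unadjusted p under 0.05 there were 3 of the 11, Apoa2, Apob and Apom, each lower in d22, against 10.9% of all regions. DESeq2 called 0 of the 11 too, against 272 of all 12375 regions. The median log2 difference was -0.02 over the 11 regions and 0.00324 over all regions. No region had CPM values of the title groups that did not overlap, where 1.33% of all regions did. Scaled to library totals, which moved the median of all regions to -0.22, edgeR called 2 of the 11, Apoa2 at -0.47 and Apob at -0.45. In that setting 454 of all 12375 regions were called. Tags were 48 bp long in pbs 1, 4 and 6 and 49 bp elsewhere, and within the 49 bp libraries the log2 differences were -0.56 at Apom, -0.30 at Apob, -0.31 at Apoa2 and, the other way, 0.47 at Apoa4, with 0 of the 11 called.

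Apob, the scaffold of very low density lipoprotein, had 186, 239 and 265 CPM (lowest, median and highest) in d22, against 231, 280 and 303 CPM in pbs. Library d22 4 was the lowest, the other 5 d22 libraries lay above pbs 6, the lowest pbs library, and all 6 lay below the other 5 pbs libraries. The means were 235 ± 26.2 CPM in d22, against 277 ± 26.3 CPM in pbs (± SD, n = 6 per group). The log2 difference was -0.23 ± 0.09 (SE, edgeR adjusted p = 0.331). Its called length averaged 5618 ± 1078 bp in d22 and 6879 ± 1225 bp in pbs (log2 difference -0.29 ± 0.15 SE, limma adjusted p = 0.746), while tags per called kilobase were 42.6 ± 5.28 CPM in d22 and 41.4 ± 8.95 in pbs. Farther into the gene, 5 regions of 338 to 1205 bp were listed in 1 or 2 libraries each.

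Of the HDL proteins, Apoa1, whose region it shares with the lipase inhibitor Apoc3, had 579, 600 and 632 CPM (lowest, median, highest) in d22 and 553, 583 and 641 CPM in pbs. The d22 values lay wholly within the range of pbs. The log2 difference was 0.03 ± 0.06 (SE, edgeR adjusted p = 0.910), and its 95% interval as a ratio ran from 0.931 to 1.12. Apoa2 had 359, 471 and 550 CPM in d22 and 469, 546 and 591 CPM in pbs, with d22 4 lowest. The groups overlapped, with 3 d22 libraries above the lowest pbs library (pbs 6). Its log2 difference was -0.24 ± 0.09 (SE, edgeR adjusted p = 0.307). Peaks covered 12779 ± 2510 bp of the whole region in d22, against 14979 ± 892 bp in pbs (± SD, n = 6 per group, log2 difference -0.26 ± 0.13 SE, limma adjusted p = 0.746). Tags per called kilobase of the region were 36.8 ± 5.40 CPM in d22 and 36.7 ± 4.42 in pbs. The region is 16271 bp wide and also holds the start of Nr1i3. The Apoa2 span alone was called over 98.9% in d22 and 98.0% in pbs, so the difference in called length lay mostly outside it. At Fcer1g, which encodes the Fc receptor gamma chain of myeloid cells and lies beside Apoa2, the log2 difference was 0.09 ± 0.16 (SE, edgeR adjusted p = 0.893).

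Apom, the HDL protein that carries sphingosine-1-phosphate, had the largest difference of the 11 regions. Its region had 21.7, 38.3 and 59.0 CPM (lowest, median, highest) in d22, against 42.2, 58.5 and 62.0 CPM in pbs. Library d22 2, the highest of its group, lay among the pbs libraries, and the other 5 d22 libraries were below 5 of the 6 pbs libraries. In counts this was 36 to 123 tags in d22 and 66 to 170 in pbs, so the region is among the more shallowly covered ones here. The log2 difference was -0.51 ± 0.19 (SE, 95% interval -0.92 to -0.11, edgeR adjusted p = 0.308). It did not pass the threshold over all regions.

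The other measures of Apom ran the same way, but they come from the same peaks as the tags and are not independent of them. Its peaks together covered 1276, 2045 and 2779 bp in d22, against 1938, 2596 and 3207 bp in pbs (log2 difference -0.41 ± 0.19 SE, limma adjusted p = 0.716). The median log2 difference in called length over all regions was -0.08. Where a peak covered the start, it reached 493, 687 and 1023 bp (lowest, median, highest) into the gene in 5 d22 libraries and 1003, 1573 and 1966 bp in 6 pbs libraries, and the start was not called in the remaining d22 library. Called peaks covered 28.1 ± 21.5% of the Apom span in d22, with a range of 0 to 58.7%, and 58.6 ± 12.7% in pbs, with a range of 35.8 to 70.1% (± SD, n = 6 per group, ranges overlapping and not tested further). The regions on either side differed little, by -0.02 ± 0.08 at Bag6, a chaperone gene, and by -0.13 ± 0.12 at Gm20522 with D17H6S53E (log2, SE, edgeR adjusted p = 0.956 and 0.776). The RefSeq span of D17H6S53E extended by 1 kb touches the Apom region, so tags of the 2 genes may not be separable there.

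**Figure D3:**
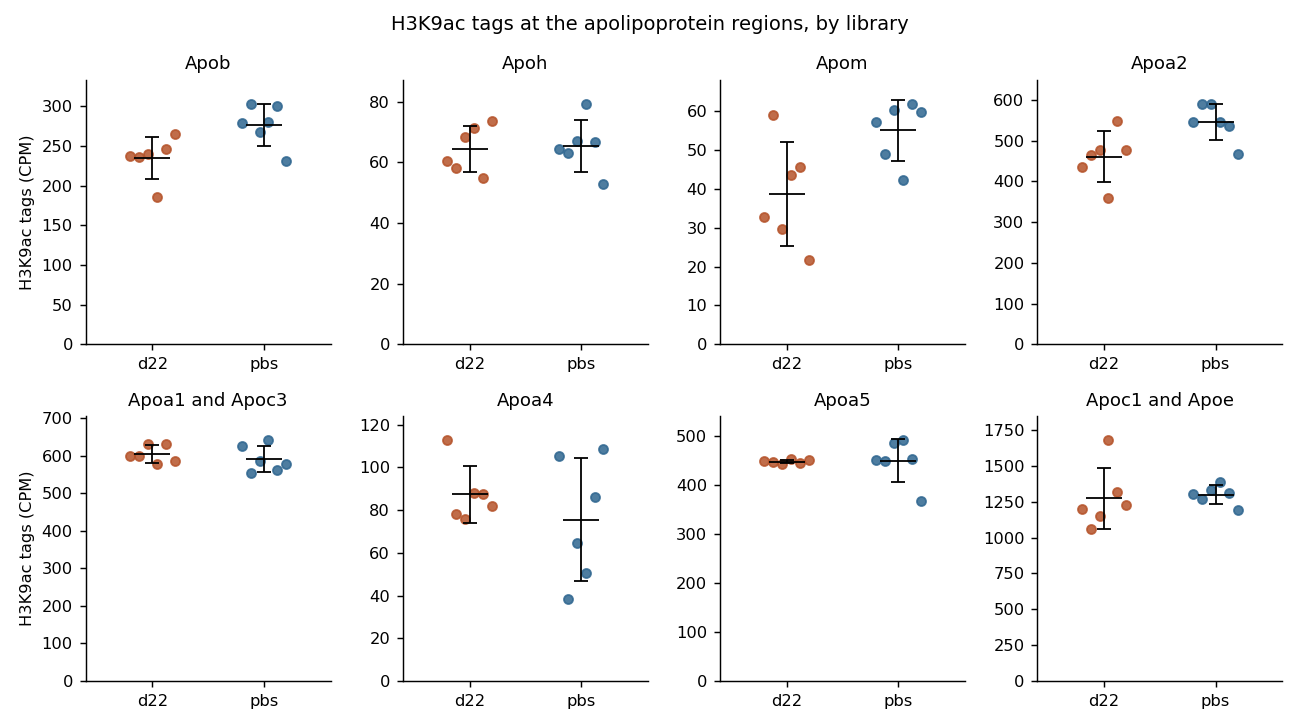
Tags in CPM (linear axes from 0, 1 scale per panel) for each library at the 8 leading regions, d22 left of pbs, with bars for the mean ± SD (n = 6 each). The d22 points tend to lie lower at Apom, Apob and Apoa2, the groups overlap in every panel, and the d22 libraries at Apoa5 all lie between 442 and 452 CPM.

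Among the genes that act on lipase and triglyceride, Apoa5 differed least. It had 442, 448 and 452 CPM in d22 and 368, 451 and 490 CPM in pbs, where pbs 6 was the lowest by a wide gap. The log2 difference was -0.00374 ± 0.07 (SE, edgeR adjusted p = 0.992), with a 95% interval of 0.895 to 1.11 as a ratio. Apoa4, an exchangeable apolipoprotein of liver and gut, had 75.6, 84.7 and 113 CPM in d22 and 38.4, 75.4 and 109 CPM in pbs. The pbs libraries were the more scattered, and the log2 difference of 0.18 ± 0.21 (SE, edgeR adjusted p = 0.813) was smaller than that scatter. It depended on how peaks were grouped, at 0.44 with peaks up to 500 bp apart joined and -0.35 ± 0.37 (SE) over the gene window, which includes the peaks at Apoa1 and Apoc3 that reach into it. Just downstream of Apoa4 a region of 3808 bp (chr9:46243972-46247779) was listed in 6 of 6 d22 and 4 of 6 pbs libraries (two-sided Fisher's exact test, p = 0.455).

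Of the remaining windows of this kind, those listed in 11 libraries lay at Fcer1g beside Apoa2 and at Zpr1 beside Apoa5, each missing from 1 pbs library. These were not tested. Occupancy was tested for regions listed in 2 to 10 libraries, here the one downstream of Apoa4 and 2 within Apob that were listed in 2 libraries each, and 0 of these 3 and 0 of 16871 regions in all (0%) passed after Benjamini-Hochberg adjustment, with 99 of 16871 at an unadjusted Fisher's exact p under 0.05.

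The Apoc1 and Apoe region, which carries the receptor ligand Apoe, had 1061, 1216 and 1677 CPM in d22 and 1191, 1309 and 1388 CPM in pbs. Library d22 4 lay above every pbs library, 2 d22 libraries lay below them all, and the other 3 lay within the range of pbs. The log2 difference was -0.03 ± 0.09 (SE, edgeR adjusted p = 0.939), and its 95% interval as a ratio ran from 0.855 to 1.12. Apoh, the phospholipid-binding protein also called beta-2-glycoprotein 1, had 54.7, 64.3 and 73.5 CPM in d22 and 52.7, 65.5 and 79.3 CPM in pbs. The d22 values again lay within the range of pbs, with a log2 difference of -0.02 ± 0.11 (SE, edgeR adjusted p = 0.966).

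Called length and gene windows gave the same counts. On called length, limma called 0 of the 11 regions and 0 of all 12375 (0%), with 1 of the 11 (Apom) and 850 of all at an unadjusted p under 0.05, and the median log2 difference was -0.11 over the 11 and -0.08 over all. On tags per called kilobase, limma called 0 of the 11, against 0.0404% of all regions. There 0 of the 11 had an unadjusted p under 0.05, where 5.62% of all regions did. The median log2 difference on this measure was 0.0337 over the 11 and 0.0839 over all. Taken gene by gene, with the tags of every peak that touches the extended span, edgeR called 0 of the 10 genes, against 83 of 11775 genes (0.705%), and DESeq2 called 0 too. An unadjusted p under 0.05 was reached by 4 genes, Apom, Apob, Apoa2 and Apoc1, with log2 differences of -0.20, -0.26, -0.28 and -0.24, where 1231 of the 11775 genes (10.5%) reached it. Genes of a cluster share peaks there, so these are not independent. For the called length inside the windows, limma called 0 of 10 genes and 0 of 11775 (0%). An unadjusted p under 0.05 was reached by 0 of the 10, where 5.66% of all genes reached it.

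The authors' fold enrichment over pooled input was the measure in which 1 apolipoprotein region passed the test. The highest fold enrichment at Apom fell to 11.8, 13.8 and 21.9 in d22 (lowest, median, highest), against 18.7, 23.6 and 26.8 in pbs. The log2 difference was -0.68 ± 0.21 (SE, limma adjusted p = 0.0176), with d22 2 alone of its group inside the range of pbs. In this measure 2475 of all 12375 regions were called (20%), with 18.7% of all regions called lower in d22, and the median of all regions was -0.30, so 1 of 11 is below the background share. Each title group had its own single input for peak calling, so input and group cannot be told apart. Without d22 4, limma called 3 of the 11 (Apoa2, Apom, and Apoc1 with Apoe) and 3079 of all 12375 regions, and within the 49 bp libraries 0 of the 11 and 452 of all. Divided by the median of each library, Apom differed by -0.38 ± 0.17 (SE, limma adjusted p = 0.195), 0 of the 11 regions passed against 9.88% of all, and 2 of the 11, Apom and, higher in d22 at 0.30, Apoh, had an unadjusted p under 0.05, as 21.4% of all regions did.

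**Figure D4:**
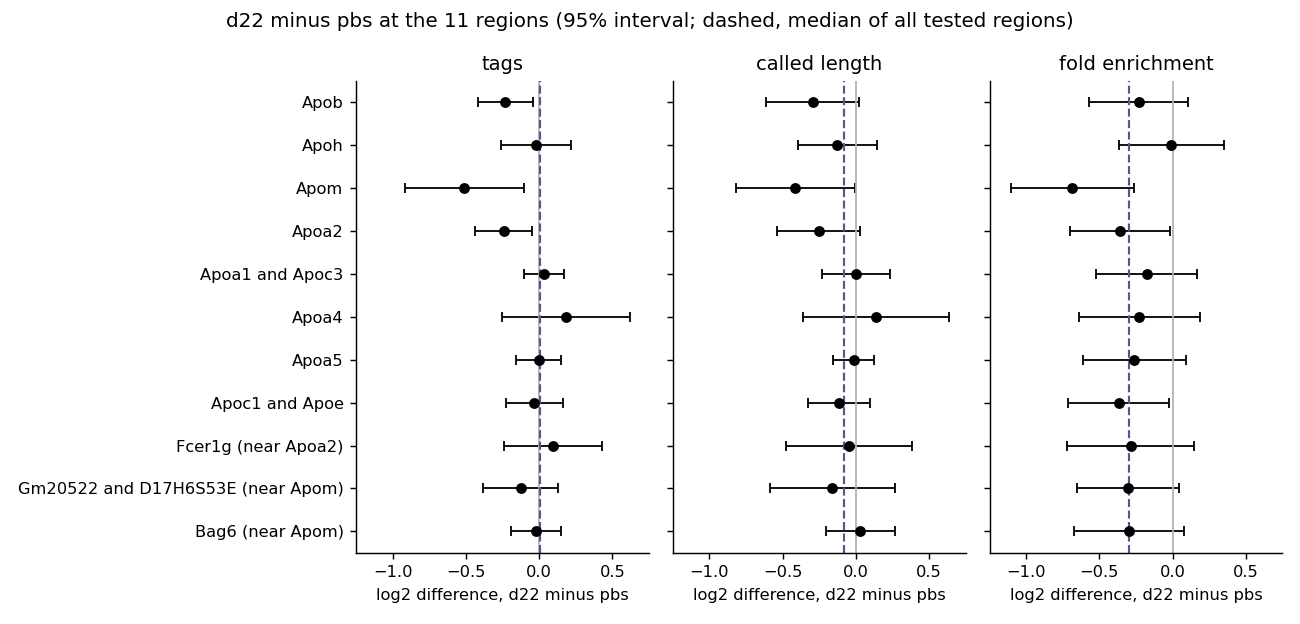
Log2 difference, d22 minus pbs, with its 95% interval for tags (edgeR), called length and fold enrichment (limma) at the 11 tested regions, with the median of all 12375 regions as a dashed line. For fold enrichment that median is -0.30, and Apom lies at -0.68. For tags the intervals of Apob, Apom and Apoa2 lie below 0 before adjustment.

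**Figure D5:**
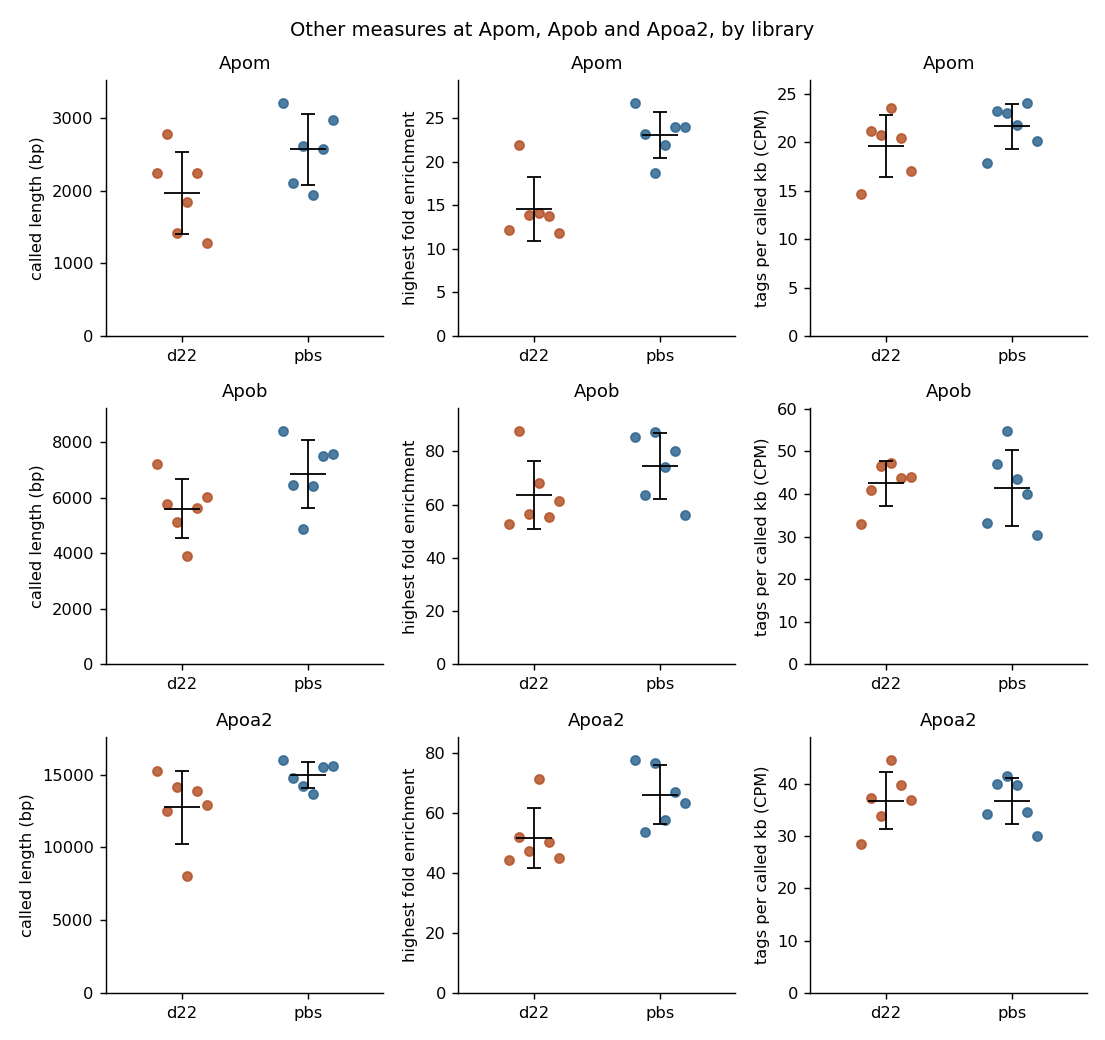
Called length in bp, highest fold enrichment and tags per called kb in CPM, by library, at Apom, Apob and Apoa2, d22 left of pbs, with bars for the mean ± SD (n = 6 each). Called length tends lower in d22 in the regions of these genes, as it was in 70.9% of all tested regions, and tags per called kb overlap widely.

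The genes around lipoprotein metabolism showed no region past the threshold either. Over 6 lists, edgeR called 0 of 66 regions outside the apolipoprotein windows, 1 of them counted in 2 lists, and the unadjusted p was under 0.05 at 1 of 6 regions of other apolipoproteins, of which 1 is the Apoc1 and Apoe region itself, 2 of 14 for lipoprotein assembly, 1 of 10 for receptors, 4 of 11 for HDL and cholesterol efflux, 1 of 6 for lipase control and 4 of 20 for transcriptional regulators of apolipoproteins, where 10.9% of all regions reached it. The list medians were -0.03, -0.04, -0.11, 0.05, -0.03 and -0.06 on the log2 scale, against 0.00324 for all regions. For each list the 2 regions with the smallest p are given next.

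Abca1, the transporter that loads cholesterol onto Apoa1, had 83.9 ± 18.2 CPM in d22, against 54.9 ± 11.0 CPM in pbs (± SD, n = 6 per group, log2 difference 0.59 ± 0.15 SE, edgeR adjusted p = 0.0826). Lipg, the endothelial lipase of HDL, averaged 121 CPM in d22, against 162 CPM in pbs (log2 difference -0.41 ± 0.11 SE, edgeR adjusted p = 0.0945). Nr1d1, the clock repressor REV-ERB alpha, had 106 ± 22.4 CPM in d22, against 152 ± 20.5 CPM in pbs (log2 difference -0.51 ± 0.13 SE, edgeR adjusted p = 0.0708). The Nr1d1 region also holds the start of Gm31862. These 3 had the smallest adjusted p-values among the lists and none passed.

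The other regions had larger adjusted p-values. Soat2, which esterifies cholesterol for secretion, differed by 0.52 ± 0.16 (log2, SE) in a region that also holds the start of Igfbp6. Sar1b, a GTPase of lipoprotein export, differed by -0.32 ± 0.11, Angptl4, an inhibitor of lipoprotein lipase, by -0.32 ± 0.09, Fgf21, a hepatic hormone, by 0.45 ± 0.23, and Foxa1, a liver pioneer factor, by -0.33 ± 0.11 (log2, SE). Sdc1, a proteoglycan receptor of remnant particles, differed by -0.25 ± 0.09 and Lrp1, another remnant receptor, by -0.16 ± 0.10, and the Sdc1 region also holds the start of Gm4755. Apol7a differed by -0.48 ± 0.23 and Apon by -0.14 ± 0.08 (log2, SE). The edgeR adjusted p of these 9 ran from 0.128 to 0.599. Hnf4a itself stood at 578 CPM in d22 and 591 in pbs (log2 difference -0.03 ± 0.07 SE, edgeR adjusted p = 0.923).

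The regions most like Apob and Apoa1 across libraries were found by the Pearson r of log2 CPM over all 12 libraries, among 11039 regions at protein-coding genes outside the apolipoprotein genes extended by 10 kb. These are descriptions with no test, and the 12 points share depth and library. The difference between the title groups is part of each r, so log2 differences of like sign follow partly from how the regions were picked. Apob was most like the regions at Arid5b (r = 0.96), Pdilt with Acsm5 (r = 0.93) and Prkd3 (r = 0.93), whose log2 differences were -0.38, -0.30 and -0.48. Apoa1 was most like those at Tchh (r = 0.89), Ncdn with AU040320 (r = 0.86) and Polr3d (r = 0.82), whose log2 differences were 0.09, 0.11 and 0.12.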

How the data were processed

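The submitters' processing notes name CASAVA 1.8, Novoalign, MACS 1.4.2 and mm10. MACS called each library alone, per the file headers, at a p-value cutoff of 1e-05 against 1 pooled input per title group (12526421 tags for d22, 10409931 for pbs), keeping at most 1 tag per position, and tags were 48 bp in pbs 1, 4 and 6 and 49 bp elsewhere. The deposited peak tables give, per peak, a raw tag count, a score on a negative log10 scale, a fold enrichment over background and an FDR in percent, all the authors' own values. The input tags were not analysed here. 

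Peaks of any library that overlapped were joined into regions. Tags and called length were summed per library, and the highest fold enrichment kept. No count exists where a list lacks a region, so only regions listed in all 12 were tested, over all such regions: tags with edgeR 4.0.16 (quasi-likelihood, robust, TMM), log2 called length, log2 tags per called kb and log2 fold enrichment with limma 3.58.1, and occupancy with Fisher's exact test (SciPy 1.17.1), all with Benjamini-Hochberg adjustment at 0.05. DESeq2 1.42.0 was an alternative. CPM is scaled to the tags in the tested regions times the TMM factor of each library. Tests were tried on simulated data. Depth was 6343891 to 13259411 tags, with the counting error of each count inside the spread tested. Library pairs differed by a chi-square of 2.41 to 10.3 per degree of freedom, so none was a duplicate. A gene's leading region is the tested one that holds its start, otherwise the one in its window with the most tags. Of each gene list the text names any gene past the threshold and otherwise the 2 with the smallest p. Gene spans and start windows are RefSeq GRCm38.p6. The apolipoprotein genes, lists and tests were chosen with earlier results of these data known.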

Additional observations from a re-analysis of the deposited data

Results flagged for a closer look

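Of 66 sets of 6 libraries screened (11 regions, tags, called length and fold enrichment, d22 and pbs), 7 had a library far from the other 5 by Dixon's ratio at the 95% level, and chance flags about 1 in 20. Library d22 4, the shallowest and the one with the most peaks, had a highest fold enrichment of 71.3 at Apoa2 (44.3 to 52.0 in the other d22 libraries) and of 71.3 at Bag6 beside Apom (34.3 to 46.4), and it had 186 CPM at Apob (236 to 265). Library d22 2 had a fold enrichment of 21.9 at Apom (11.8 to 14.2). Library d22 1 had 33887 bp called at Apoc1 and Apoe (27256 to 28641 bp) and 113 CPM at Apoa4 (75.6 to 88.2). Library pbs 6 had 368 CPM at Apoa5 (448 to 490 in the other pbs libraries).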

How the results depend on the processing

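With library totals in place of TMM, which shifted the median of all regions by -0.22 on the log2 scale, edgeR called 2 of the 11 apolipoprotein regions (Apoa2 at -0.47 and Apob at -0.45, adjusted p = 0.0215 and 0.0321) and 454 of all, and 10 of 66 pathway regions. In that setting Apoa1 with Apoc3 turned to -0.20 and Apoa4 to -0.0576. On fold enrichment the count of apolipoprotein regions called was 0 with the 49 bp libraries only, 0 when divided by the library's median and 0 with peaks of a score of at least 100. It was 1 to 3 on leaving out each library in turn, with 3 (Apoa2, Apom, and Apoc1 with Apoe) without d22 4. Those fits called 1559 to 3606 of all regions. Over all regions, fits that left out 1 library called 64 to 139 on tags and 0 to 38 on called length. Over all gene windows they called 38 to 112 and 0 to 3. Leaving out each library kept the apolipoprotein counts at 0 for tags and called length, of regions and of gene windows. It moved the log2 difference in tags at Apom between -0.67 and -0.39, Apob between -0.28 and -0.17, Apoa2 between -0.30 and -0.18, Apoa4 between 0.05 and 0.32, Apoa5 between -0.0561 and 0.0309, Apoc1 with Apoe between -0.12 and 0.0244 and Apoh between -0.0827 and 0.0437, so the sign of the last 3 is not fixed. Per called kb, where the median of all regions was itself 0.0839, signs turned at Apoa2 (0.000467), Apoa5 (0.0154), Apob (0.0567), Apoc1 with Apoe (0.0679) and Apoh (0.10). Of these, only Apoh lay above that median. Apoh also turned with a score of at least 100 (0.000304) and Apoa5 with DESeq2 (0.00102) and with peaks up to 500 bp apart joined (0.00283). The cause of these changes was not tested. Over all regions, 125 were called on tags in edgeR, 272 with DESeq2, 39 with the 49 bp libraries only and 5 per called kb; over all gene windows the counts were 83, 231, 13 and 0, with 220 on library totals and 38 without the 5 kb margin. On fold enrichment they were 2475, 1223 divided by the library's median and 452 with the 49 bp libraries only. Within the 49 bp libraries, tags differed by -0.56 at Apom, -0.30 at Apob, -0.31 at Apoa2 and 0.47 at Apoa4, with 0 of 11 called. Joining peaks up to 500 bp apart moved Apoa4 to 0.44. No region with exactly 1 peak in every library held a member, so that setting gave no value. In 1 of 6 cases a d22 library correlated most with the pbs library of its own replicate number. The correlations of libraries with the same number were -0.00635 to 0.158, so replicate numbers were taken as names. With the replicate block edgeR called 0 of 11 regions and 128 of all, limma 1 (Apom) on fold enrichment, and Apoa5 turned to 0.00131. Apom had 36 to 170 tags per library, and the part of counting error in its spread was not tested.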
